A study of Mus musculus with 8 samples.

Results

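The 9 genes described here are the transcription factors that make and keep enteroendocrine cells, Neurog3, Pax4, Insm1, Neurod1, Nkx2-2, Pax6 and Isl1, and the granins Chga and Chgb, which fill the granules of mature enteroendocrine cells. They were chosen by name, and all 9 had values among the 16958 genes with values in the crypt table. RNA of intestinal crypts was sequenced in 6 libraries of C57BL/6 mice labelled as 8 weeks old, and each library is a group of its own. The control library, WT, came from setdb1fl/fl littermates, and the libraries VEMD2, VEMD3, VEMD4, VEMD6 and VEMD8 came from mice labelled setdb1 iIEC-KO, in which Setdb1, a histone H3 lysine methyltransferase, was targeted in the intestinal epithelium. The column of control values is named WT1, a name that does not by itself exclude the WT stem cell sample of the same study. It was taken as the crypt WT library because the extraction protocol lists WT with the VEMD libraries, and every ratio to WT below rests on that match. The recombinase was Villin-CreERT2, which is driven by an epithelial promoter, and per the labels all crypt mice, WT littermates included, were given 1 dose of tamoxifen at 800 mg/kg. The labels do not spell out VEMD, do not name the segment of the intestine and do not say whether animals were pooled. The deposited table speaks of days in its title, so the libraries are given in the order of the number in their names, which is used only as a label; a run of 6 values below follows this library order, with WT first. With 1 library per group no difference could be tested and no value carries an error, so higher and lower describe these libraries alone.

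Enteroendocrine cells are the rare hormone-secreting cells of the gut epithelium and arise in the crypt from secretory progenitors. Neurog3 is switched on for a short time in the progenitor and is needed for the whole lineage, and Neurod1, Insm1 and Pax4 follow it. Nkx2-2, Pax6 and Isl1 are homeodomain factors that set and hold the hormone program, while granins and hormones accumulate as the cell matures and leaves the crypt. Crypt RNA is a mixture, and fewer cells of a type cannot be told apart from less RNA per cell.

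The upstream sequences of 4 members are shown for their roles, Neurog3 being the factor that starts the lineage, Neurod1 one it activates, and Chga and Chgb products of the mature cell. A link of these sequences to the order of loss was not tested. Each is the 250 bases before the start of the gene in RefSeq on GRCm38.p6, read 5′ to 3′ on the strand of the gene. Capitals mark matches to CAGATG (an E-box bound by neurogenic factors), to the E-box form CAGCTG, to the further E-box form CATATG, to the N-box CACNAG, to the cyclic AMP response element TGACGTCA and to its shorter form, which lies within it and reads TGACGT, all searched on both strands. The windows are chr10:62132840-62133089 on the plus strand for Neurog3, chr2:79456637-79456886 on the minus strand for Neurod1, chr12:102554691-102554940 on the plus strand for Chga and chr2:132781392-132781641 on the plus strand for Chgb.
Neurog3: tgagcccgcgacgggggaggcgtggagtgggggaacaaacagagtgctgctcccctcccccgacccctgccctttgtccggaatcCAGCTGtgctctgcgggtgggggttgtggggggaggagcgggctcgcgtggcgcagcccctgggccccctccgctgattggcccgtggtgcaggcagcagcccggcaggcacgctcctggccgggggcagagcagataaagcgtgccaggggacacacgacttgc
Neurod1: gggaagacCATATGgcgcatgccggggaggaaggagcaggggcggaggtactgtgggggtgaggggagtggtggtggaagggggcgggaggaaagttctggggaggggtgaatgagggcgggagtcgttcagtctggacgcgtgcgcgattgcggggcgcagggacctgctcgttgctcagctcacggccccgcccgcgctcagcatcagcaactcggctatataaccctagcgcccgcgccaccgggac
Chga: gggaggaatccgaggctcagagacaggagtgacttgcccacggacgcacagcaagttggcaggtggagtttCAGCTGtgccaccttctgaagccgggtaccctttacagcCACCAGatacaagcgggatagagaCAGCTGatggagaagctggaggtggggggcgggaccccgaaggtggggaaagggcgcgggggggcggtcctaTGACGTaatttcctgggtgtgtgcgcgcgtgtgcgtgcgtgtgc
Chgb: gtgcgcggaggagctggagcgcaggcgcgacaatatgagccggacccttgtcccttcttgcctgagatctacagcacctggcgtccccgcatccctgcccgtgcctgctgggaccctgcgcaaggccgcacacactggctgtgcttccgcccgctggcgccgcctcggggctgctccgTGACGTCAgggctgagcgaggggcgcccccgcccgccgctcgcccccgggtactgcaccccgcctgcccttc

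The windows of Neurog3 and Chga held the E-box CAGCTG, in 1 copy and 2 copies, and so did that of Isl1, against 13.0% of all 32851 windows of this length. CATATG was found in Neurod1 and in 3.46% of all windows. CAGATG was found on the other strand in Nkx2-2 and in 14.4% of all windows. TGACGT, added to the search after the Chga window had been seen, was found in 5 of 8 member windows, those of Chga, Chgb and Isl1 and both windows of Pax6, and in 6.47% of all windows. The full TGACGTCA stood in Chgb, 72 to 65 bases before its start, and in the upstream window of Pax6, against 1.55% of all windows. The N-box, a site known for Hes1, was found in Chga and the other Pax6 window and in 36.7% of all windows. The core of the RE1 element and the TATA box TATAAA were in no member window, and in 0.0335% and 12.4% of all windows. These are matches of letters and show no binding. Windows were at hand for 7 of the 9 members; Pax4 and Insm1 are named only.

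The libraries had near equal estimated depth. Low FPKM values, which are scaled to gene length and library size, were multiplied by gene length. The products tended toward whole multiples of 1 fragment, but the fit was partial. Their concentration on such multiples, which is 1 for an exact fit, was 0.307 to 0.343 at the step found. The median over all steps searched was 0.054 to 0.077. The step found gave about 16500000 to 17100000 fragments per library. Numbers of fragments below are estimates from that step and the longest annotated transcript. Setdb1 itself measured 9.42, 6.64, 7.03, 5.49, 3.53 and 4.95 FPKM, below WT in each library labelled a knockout but not near 0 in any. The deposited values are per gene, so loss of the deleted part alone was not tested. The median log2 ratio to WT over 10862 genes was 0.09, 0.12, 0.03, -0.23 and -0.06 from VEMD2 to VEMD8, and ratios are to be read against these shifts. These genes averaged 1 FPKM or more over the libraries and are called tested below, meaning that they were set against a limit of size, with no statistical test. All 9 epithelial markers listed, such as Epcam and Vil1, were present in every library, and together they summed to between 5238 and 7216 FPKM. The markers of enteric neurons and glia, other cells that use several of these factors, summed to between 0.98 and 5.13 FPKM over 11 of 15 genes with values. Most of the 5.13 in VEMD6 was Tubb3 at 4.67. The islet genes Ins1, Ins2 and Ppy had no values. Iapp, listed under both pancreas and enteroendocrine hormones, measured 0.82, 1.61, 2.47, 2.17, 0 and 0.09 FPKM.

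Neurog3, the basic helix-loop-helix factor that opens the lineage (gene 11925, chromosome 10, 62133090 to 62134763), measured 2.63, 2.44, 1.49, 1.27, 0.46 and 0.91 FPKM. It was thus highest in WT and lower in each library up to VEMD6, with VEMD8 between VEMD4 and VEMD6. The levels were 92.8%, 56.7%, 48.3%, 17.5% and 34.6% of WT and rested on about 69 fragments in WT, 38 in VEMD3, 12 in VEMD6 and 23 in VEMD8. On the log2 scale, with a pseudocount of 1 FPKM here and in every log2 ratio below, the difference from WT was -0.54 in VEMD3, -1.31 in VEMD6 and -0.93 in VEMD8.

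Pax4, a paired homeodomain repressor of early enteroendocrine cells (gene 18506, chromosome 6, 28442334 to 28449340), was already far lower in the library with the lowest number. It measured 2.08, 0.48, 0.27, 0.60, 0.04 and 0.09 FPKM. The first 3 knockout libraries were at 23.1%, 13.0% and 28.8% of WT, on about 11, 6 and 14 fragments against about 49 in WT. VEMD6 and VEMD8 rested on about 1 and 2 fragments, too few for a ratio. Pax4 had a mean under 1 FPKM over the 6 libraries and was not among the genes tested. In VEMD2 it was the 1 member of 9 at or below 50% of WT, against 3.34% of genes tested. Being at or below 50% of WT in all 5 knockout libraries was met by 0.865% of the genes tested and, among the 9 members, by Pax4 alone. Both shares come from genes with a higher mean than Pax4. No share among genes as low as Pax4 is at hand, so how rare its course was cannot be told.

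Insm1 and Neurod1 did not share the early low values. Insm1, a zinc finger factor of endocrine progenitors (gene 53626, chromosome 2, 146221997 to 146225020), measured 1.79, 2.73, 2.44, 1, 0.38 and 0.64 FPKM. VEMD2 and VEMD3 stood above WT and the 3 later libraries below it, at 55.9%, 21.2% and 35.8% of WT. Neurod1, a basic helix-loop-helix factor activated by Neurog3 (gene 18012, chromosome 2, 79452637 to 79456636), measured 2, 2.23, 2.8, 2.01, 0.31 and 0.32 FPKM. No library up to VEMD4 was below WT, and VEMD6 and VEMD8 were at 15.5% and 16% of it, on about 14 fragments each.

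The later factors were low even in WT. Nkx2-2 (gene 18088, chromosome 2, 147176485 to 147195434), which is needed for most hormone-producing types, measured 1.09, 1.49, 1.31, 0.47, 0.26 and 0.33 FPKM. It was above WT in VEMD2 and VEMD3 and at 43.1%, 23.9% and 30.3% of WT in the rest. Pax6 (gene 18508, chromosome 2, 105668896 to 105698410), an activator of the proglucagon and incretin genes, measured 0.61, 0.52, 0.51, 0.11, 0.04 and 0.02 FPKM, the last pair on about 3 fragments and 1 fragment. It stood near WT up to VEMD3 and at 18.0% of WT in VEMD4, on about 8 fragments. Isl1 (gene 16392, chromosome 13, 116298270 to 116309688), a LIM homeodomain factor of several hormone types, measured 0.95, 0.77, 0.68, 0.48, 0.05 and 0.07 FPKM, the last pair on about 2 and 3 fragments. WT was its highest library, and VEMD2, VEMD3 and VEMD4 were at 81.1%, 71.6% and 50.5% of it. All 3 genes had means under 1 FPKM and were not tested. Pax6 and Nkx2-2 each overlap other annotated genes, Pax6os1 and Elp4, and Nkx2-2os and 6430503K07Rik. Whether reads were counted by strand is not given in the sources used here, so reads of such neighbours cannot be told apart.

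The granins took another course. Chga, the acidic granule protein chromogranin A and the usual marker of enteroendocrine cells (gene 12652, chromosome 12, 102554941 to 102565027), measured 34.78, 46.28, 74.31, 18.75, 10.22 and 3.39 FPKM. VEMD3 was the highest library, at 214% of WT, and VEMD8 the lowest, at 9.75%. Chgb, chromogranin B (gene 12653, chromosome 2, 132781642 to 132795079), measured 60.47, 99.16, 138.82, 43.73, 15.71 and 8.16 FPKM. It was at 230% of WT in VEMD3 and at 13.5% in VEMD8. These values rested on about 105 to 6361 estimated fragments. The log2 ratios in VEMD3 were 1.07 for Chga and 1.19 for Chgb, or 0.95 and 1.06 once libraries were rescaled to their median gene, so that Chga lay on either side of 2-fold. In VEMD8 they were -3.03 and -2.75. Chgb was at 1.54 to 2.41 times the FPKM of Chga across the 6 libraries.

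**Figure D1:**
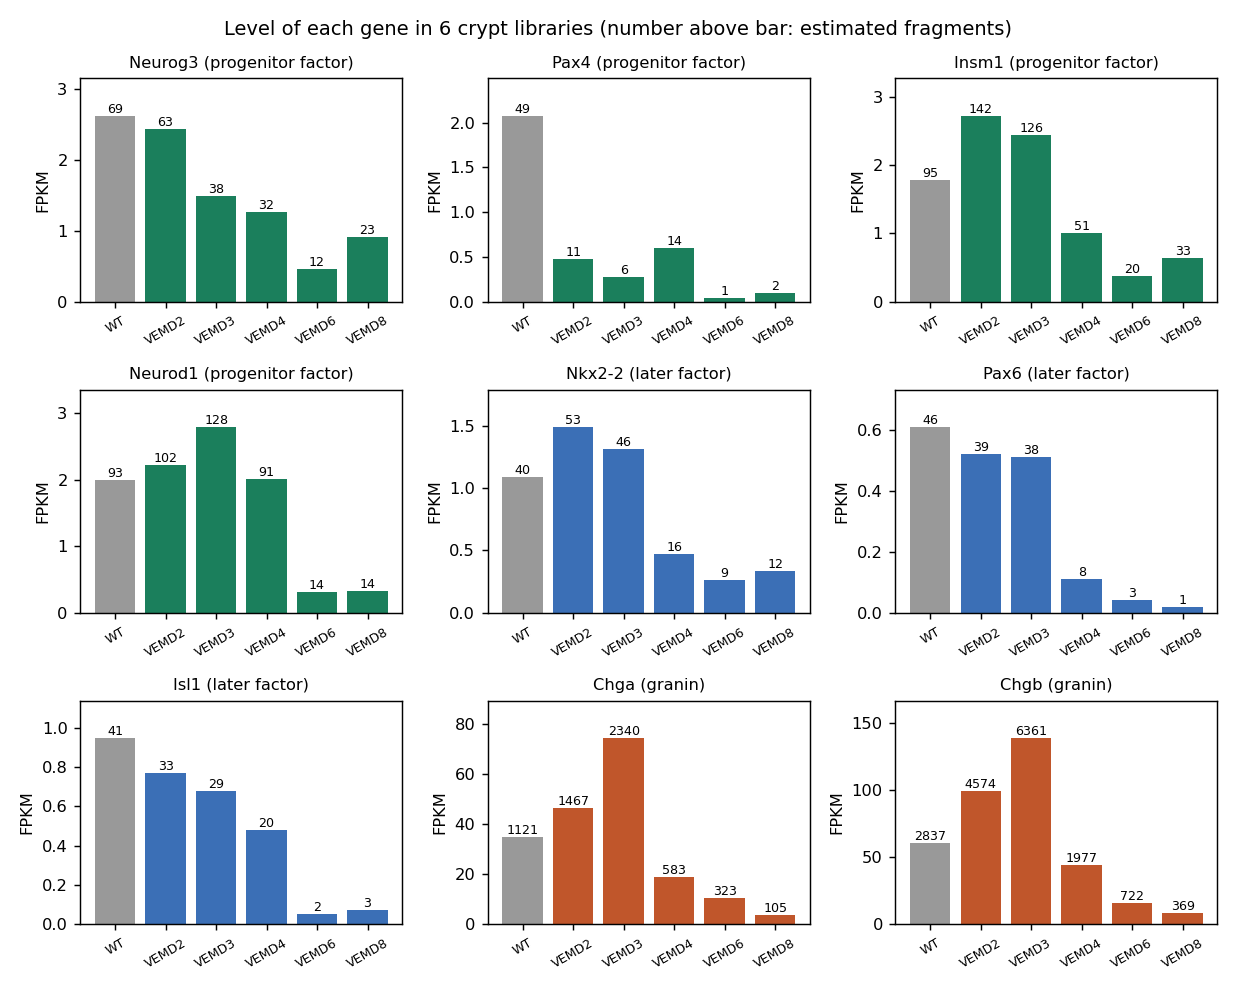
FPKM of the 9 genes (bars, 1 per library; grey is WT) in 6 crypt libraries, with the estimated number of fragments above each bar. Neurog3 and Pax4 were highest in WT, Chga and Chgb were highest in VEMD3 at 74.31 and 138.82 FPKM, and VEMD6 and VEMD8 were the 2 lowest libraries for every gene.

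In VEMD3 Neurog3 and Pax4 stood below WT and the granins above it, as did the progenitor factors Insm1 and Neurod1, at 136% and 140%. Neurog3 was at 56.7% of WT there and Pax4 at 13.0%, while Chga was at 214% and Chgb at 230%. The FPKM of Chga divided by that of Neurog3 was 13.2, 19.0, 49.9, 14.8, 22.2 and 3.73, highest in VEMD3 and lowest in VEMD8. Summed over each class, the 4 progenitor factors were at 92.7%, 82.4%, 57.4%, 14% and 23.1% of WT from VEMD2 to VEMD8, the 3 later factors at 105%, 94.3%, 40%, 13.2% and 15.8%, and the 2 granins at 153%, 224%, 65.6%, 27.2% and 12.1%. Within the progenitor class the course was not shared, since Insm1 and Neurod1 were above WT in VEMD2 and VEMD3 and Neurog3 and Pax4 below it.

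The order of loss was read as the first library from which a gene stayed at or below 50% of WT. Pax4 met this from VEMD2, Neurog3, Nkx2-2 and Pax6 from VEMD4, and Insm1, Neurod1, Isl1, Chga and Chgb from VEMD6. Of the 5 members tested, 4 belonged to the last group, Insm1, Neurod1, Chga and Chgb, against 2.61% of genes tested. Isl1 was just outside the limit in VEMD4, at 50.5% of WT, and Neurog3 just inside it, at 48.3%, so the split between VEMD4 and VEMD6 is not sharp, and Isl1 joined the VEMD4 group after rescaling to the median gene. With a limit of 60% Neurog3 moved to VEMD3, and Insm1, Isl1 and Chga to VEMD4, which left Neurod1 and Chgb at VEMD6. With a limit of 40% Neurog3 and Nkx2-2 moved to VEMD6. Under all 3 limits Pax4 was first, from VEMD2 on, and Neurod1 and Chgb were among the last.

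**Figure D2:**
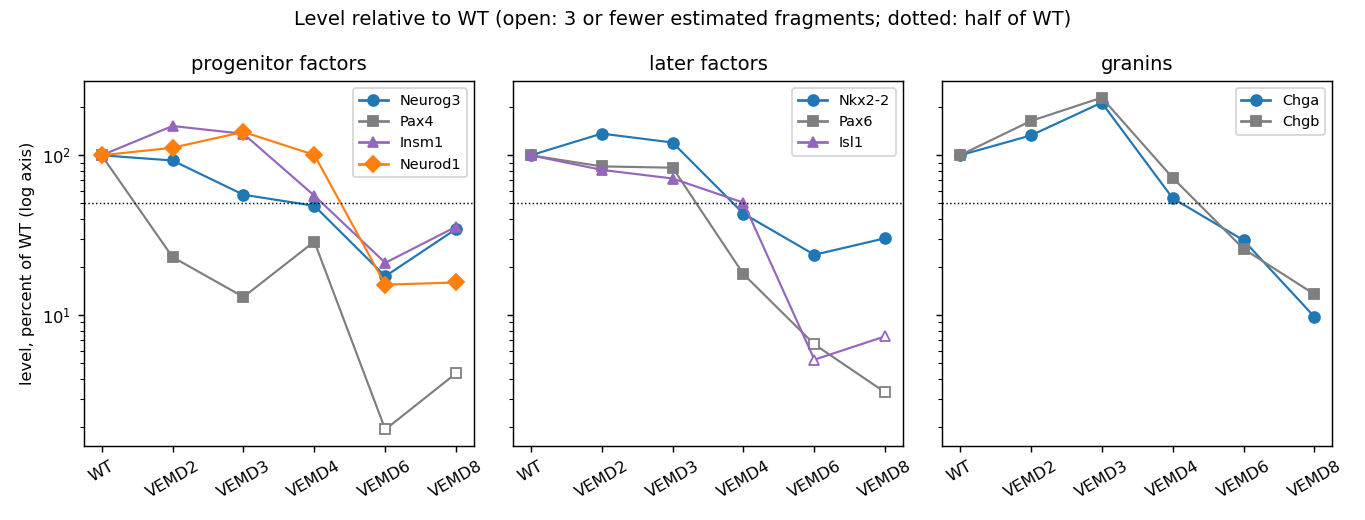
Level of each gene as a percent of WT (log axis) by library, in 3 panels by role; open points rest on 3 or fewer estimated fragments and the dotted line is 50% of WT. Pax4 was below the line from VEMD2 on, Neurog3 crossed it at VEMD4, and Chga and Chgb stood above WT in VEMD2 and VEMD3 and below the line in VEMD6 and VEMD8.

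In VEMD6 and VEMD8 all 9 members were below 50% of WT, and each of the 9 was lower in both libraries than in any of the other 4. That last pattern was common, at 30.7% of all genes tested, while 5.39% of genes tested were at or below 50% of WT in both libraries. By the rule of at least 2-fold on the log2 scale, 5 members could be called, Neurog3, Insm1, Neurod1, Chga and Chgb. All 5 were 2-fold lower than WT in VEMD6, or 4 after rescaling to the median gene, which put Insm1 at -0.95, against 8.15% of genes tested, and 3 in VEMD8, Neurod1, Chga and Chgb, against 5.21%. In VEMD3 none of the 5 was 2-fold lower, against 4.63% of genes tested, and Chga and Chgb were 2-fold higher, against 6.00%. In VEMD2 and VEMD4 none passed in either direction, against 2.39% lower and 2.44% higher, and 5.04% lower and 7.11% higher, of genes tested. The median log2 ratio of the 5 was 0.40, 0.34, -0.48, -1.31 and -1.18 from VEMD2 to VEMD8, and that of all 9 was 0.11, 0.14, -0.51, -1.20 and -0.93. All these ratios share the 1 WT library.

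VEMD8 was also set against VEMD6, a comparison chosen after the values were seen. Neurog3 was at 0.91 FPKM in VEMD8 and 0.46 in VEMD6, Insm1 at 0.64 and 0.38, and Nkx2-2 at 0.33 and 0.26, while Neurod1 was at 0.32 and 0.31. The granins stood the other way round, Chga at 3.39 and 10.22 and Chgb at 8.16 and 15.71, which is 33.2% and 51.9% of VEMD6. Of the 5 members tested, 3 were higher in VEMD8 than in VEMD6, against 67.4% of all genes tested, a share that says nothing particular about the factors. Chga alone was 2-fold lower in VEMD8, against 2.22% of genes tested, and none was 2-fold higher, against 1.45%.

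Other enteroendocrine transcription factors were mostly too low to test, with 5 of 20 reaching a mean of 1 FPKM. Foxa2, a forkhead factor of enteroendocrine and goblet cells, measured 2.17, 2.36, 1.95, 1.32, 0.4 and 0.59 FPKM. It was the 1 of 5 that was 2-fold lower in VEMD6, against 8.15% of genes tested. Foxa1, its relative, was 2-fold higher in VEMD3 and VEMD4, at 15.46 and 19.13 against 6.41 in WT. Sox4, which acts in early secretory progenitors, measured 4.89, 6.98, 9.54, 9.19, 2.41 and 4.05 FPKM, highest in VEMD3 like the granins. Pdx1, a factor of the proximal gut, was 2-fold higher in VEMD6 and VEMD8. The median log2 ratio of the 5 was 0.18, -0.10, -0.15, -0.65 and -0.22 from VEMD2 to VEMD8. Among factors under 1 FPKM that were not tested, Fev, a factor of serotonin cells, measured 0.98, 1.41, 1.34, 0.17, 0.04 and 0 FPKM. Rfx6, which acts below Neurog3, measured 0.8, 1.36, 1.15, 0.45, 0.19 and 0.16.

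Genes of granules and prohormone processing, which serve the same compartment as the granins, had 14 of 27 members tested. None was 2-fold from WT in VEMD2, and 3 were higher in VEMD3, against 6.00% of genes tested. In VEMD4 1 was lower, against 5.04% of genes tested, and 2 were higher, against 7.11%. In VEMD6 6 were lower, against 8.15%, and 2 higher, against 5.04%. In VEMD8 7 were lower, against 5.21%, and 1 higher, against 4.36%. Cpe, the carboxypeptidase that trims prohormones, measured 6.86, 8.75, 13.91, 5.42, 1.56 and 0.58 FPKM, which ranks the libraries as Chga does. Scg2, the granin secretogranin II, measured 2.57, 3.29, 4.36, 2.38, 0.64 and 0.15 FPKM. Ptprn2, a membrane protein of secretory granules, measured 4.79 and 6.99 FPKM in WT and VEMD2, its highest library, and 0.69 in VEMD6, its lowest. Gch1, which makes the cofactor of serotonin synthesis and is not confined to these cells, was higher than WT in all 5 knockouts, with 28.54 in VEMD4 against 8.51. The median log2 ratios of the 14 were 0.28, 0.44, -0.07 and -0.69 up to VEMD6 and -0.999 in VEMD8. Of 26 genes of this list above 0 in VEMD6 or VEMD8, 20 were lower in VEMD8 and 6 higher, while 67.4% of all genes tested were higher. The 26 include genes under 1 FPKM that were not tested and differ little, such as Rab3c at 0.06 in VEMD6 and 0.05 in VEMD8. Of the 14 tested, 1 was 2-fold lower in VEMD8 than in VEMD6, against 2.22% of genes tested, and none was 2-fold higher, against 1.45%.

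The hormones, the products of the mature cells, also reached their highest values mostly in VEMD3. Of 10 tested, 7 were highest in VEMD3, against 28.2% of all genes tested, as were Chga, Chgb and Neurod1 of the 5 members tested. This peak was not particular to enteroendocrine genes, since 5 of 8 stem cell markers were also highest in VEMD3. Of the 10 hormones, 7 were 2-fold lower than WT in VEMD6, against 8.15% of genes tested, and 9 in VEMD8, against 5.21%. Sst, somatostatin, measured 28.1, 22.28, 46.9, 36.69, 7.5 and 1.59 FPKM.

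**Figure D3:**
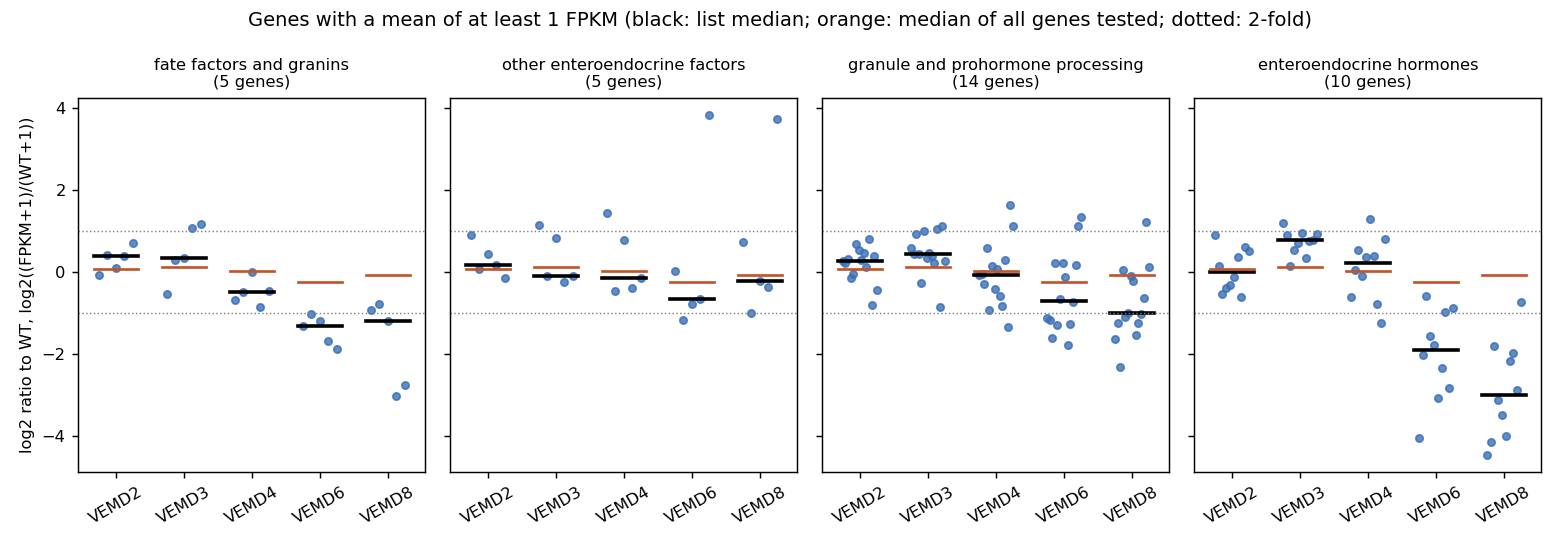
Log2 ratio to WT of each gene tested (points) in the 5 knockout libraries for the fate factors and granins and 3 related lists, with the list median in black, the median of all genes tested in orange and 2-fold dotted. The hormone list had the lowest medians, -1.89 in VEMD6 and -2.997 in VEMD8, and every list had a median below that of all genes tested in those libraries.

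Genes of Notch signalling and secretory fate were read next, not all of which act before Neurog3. Of 14 tested, 5 were 2-fold lower in VEMD6, namely Atoh1, Dll4, Hes1, Creb3l1 and Spdef, the last also listed as a goblet marker. The share of all genes tested was 8.15% there. In VEMD8 2 were lower, Atoh1 and Hes1, against 5.21% of genes tested. In each of VEMD2, VEMD3 and VEMD4 1 was lower, Klf4 in VEMD2 and VEMD3 and Dll4 in VEMD4. The shares of all genes tested in those libraries were 2.39%, 4.63% and 5.04%. Atoh1, the factor that commits progenitors to secretory fates, measured 10.74, 13.64, 9.88, 11.32, 3.42 and 4.5 FPKM. It was thus near or above WT in VEMD3 and VEMD4, where Neurog3 was at 56.7% and 48.3%. Dll4, a Notch ligand of secretory progenitors, measured 5.29, 3.91, 2.5, 1.94, 1.76 and 2.36 FPKM, below WT in each knockout library. Hes1, the repressor that Notch induces, measured 29.66, 22.55, 29, 18.79, 13.15 and 14.27 FPKM.

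Markers of other cell types and some genes graded along the gut also differed between these libraries. In VEMD3, where the granins were highest, all 10 enterocyte markers were 2-fold lower than WT, and 3 were 2-fold higher and 2 lower in VEMD6. Paneth markers were 2-fold lower in 9 of 9 in VEMD6 and 7 of 9 in VEMD8, and goblet markers in 7 and 4 of 8. In VEMD4, from which Neurog3, Nkx2-2 and Pax6 stayed at or below 50% of WT, 5 of 9 Paneth markers were 2-fold lower and 2 higher. There 3 of 8 leukocyte markers tested, Cd68, Laptm5 and Tyrobp, were 2-fold higher, and the 12 markers of that list summed to 39.93 FPKM against 18.1 in WT and 12.85 to 25.43 elsewhere. Dcn, a marker of stroma, was at 1.3 in VEMD4 and at most 0.22 in the other libraries. Col1a1, Col1a2, Col3a1, Lum and Pdgfra were also highest in VEMD4, at 0.29 FPKM or less. The 11 stroma markers together did not peak there, with sums of 3.48, 6.48, 7.47, 4.76, 1.53 and 1.84 FPKM. Vim, the largest part of each sum and the 1 stroma marker tested, fell to 2.42 in VEMD4. Its WT level was 3.02, and it peaked at 6.31 in VEMD3. Proliferation genes were 2-fold lower in 4 of 10 in VEMD6 and in none in VEMD8. Among all genes tested, 4.63%, 5.04%, 8.15% and 5.21% were 2-fold lower in VEMD3, VEMD4, VEMD6 and VEMD8. The shares 2-fold higher were 7.11% in VEMD4 and 5.04% in VEMD6. Genes graded along the intestine were added after the values were seen, and some of them differed. The proximal genes Pdx1, Onecut2 and Slc40a1 were at 0.32, 6.03 and 1.77 FPKM in WT, at 17.89, 14.54 and 46.68 in VEMD6 and at 16.69, 16.37 and 20.93 in VEMD8, and up to VEMD4 none exceeded its WT level. The distal gene Osr2 measured 34.78, 26.76, 21.17, 10.37, 2.87 and 0.5 FPKM. Not every graded gene moved this way. Gata4, a proximal factor, lay between 35.99 and 59.29 in the 6 libraries. The ileal genes Fabp6 and Slc10a2 were above their WT levels of 2.27 and 0.65 in VEMD2, at 51.72 and 3.1, and measured 0 and 1.12 in VEMD6. Several hormones are also graded along the gut, and the part of gut position and of cell mixture in the levels of the 9 genes was not tested.

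**Figure D4:**
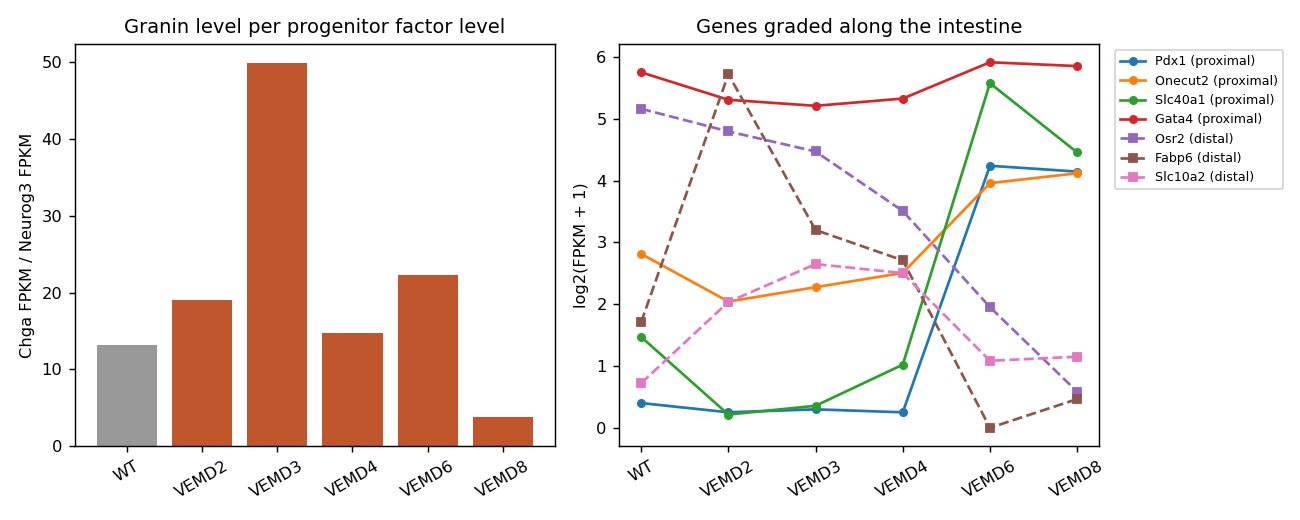
Left, the FPKM of Chga divided by that of Neurog3 in each crypt library (bars from 0); right, log2(FPKM + 1) of 7 genes graded along the intestine, solid for proximal and dashed for distal. The ratio was 49.9 in VEMD3 and 3.73 in VEMD8, and Pdx1 stood apart in VEMD6 and VEMD8.

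The members were also compared with each other. Across the 6 libraries, the Pearson correlation of log2(FPKM + 1) was 0.99 between Chga and Chgb and 0.99 between Insm1 and Nkx2-2. With Chga, Neurog3 and Pax4 had the lowest correlations, 0.68 and 0.43. Those of Insm1, Neurod1, Nkx2-2, Pax6 and Isl1 with Chga were 0.88, 0.91, 0.89, 0.88 and 0.87. These describe 6 points that share tissue and processing. Among 8305 other genes that averaged 5 FPKM or more, the nearest to Chga were Rbm45 at 0.99 and Cpe, Spef1, Sars2 and Stk11 at 0.98. Those nearest to Neurog3 were Commd10 at 0.996 and Hnrnpd, AY074887, Nelfcd and Get4 at 0.99. With so many genes ranked over 6 points, values this high are met by genes of small range, such as Rbm45 between 13.41 and 21.33 FPKM. In the genome, 5 of the 9 members, Chgb, Neurod1, Pax6, Nkx2-2 and Insm1 lie on chromosome 2.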

How the data were processed

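RNA-seq gene values of 6 crypt libraries are FPKM as deposited by the authors, rounded to 2 decimals; the column names per the file headers give this unit. The tools listed per the submitters' processing notes are edgeR, featureCounts and HISAT2, and the builds mm10 and GRCm38; versions, and which tool made the table, are not given in the sources used here. Of 20718 lines, 3760 held no value; 16916 of the other 16958 genes got a symbol by gene identifier from RefSeq (GRCm38.p6), and 42 did not. The stem cell libraries were not analysed here, and 2 columns with values per sample in a table of repeats were not used.

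The members and lists were chosen with earlier results of these data known. Log2 ratios used a pseudocount of 1 FPKM, which understates changes of low genes; genes averaging 1 FPKM or more over 6 libraries were tested against a limit of 2-fold, a description of size with no p-value. Percents of WT used no pseudocount. The step worth 1 fragment, in FPKM times kilobases, was sought between 0.03 and 0.12. Genes from 0.05 to 1 FPKM and the longest GENCODE M21 transcript were used, and the step was 0.0584 to 0.0606. The effect of the length chosen on fragment numbers was not tested, and no intervals are given. Named genes were the 9 members, up to 4 tested genes of a list by their largest ratio, and the 5 genes nearest to Neurog3 and to Chga; the rest, such as Hes1, Fev, Rfx6 and the genes graded along the gut, were chosen after their values were seen, and not all genes the rule names are reported. Alternatives were pseudocounts of 0.1 and 5 FPKM, rescaling to the median gene, no filter or a mean of 5 FPKM, limits of 1.5-fold and 3-fold, VEMD2 as reference, and leaving out libraries. The ratio rule and the step search were tested on simulated data. The rule was tried on genes of at least 5 FPKM in WT, and the step search with known gene lengths. Neither covers genes as low as the factors here or a wrong gene length. Python 3.11.15, numpy 2.4.6, pandas 2.3.3 and matplotlib 3.10.9 were used. Some genes of the lists are not reported here.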

Additional observations from a re-analysis of the deposited data

Results flagged for a closer look

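The granins were 2-fold higher than WT in one knockout library and 2-fold lower in others, which flagged them; the difference between libraries was not tested. Chga had log2 ratios to WT of 1.07 in VEMD3, -1.67 in VEMD6 and -3.03 in VEMD8. Chgb had log2 ratios of 1.19 in VEMD3, -1.88 in VEMD6 and -2.75 in VEMD8. No other member tested was 2-fold from WT in both directions.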

How the results depend on the processing

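No paired analysis was possible because every group is a single library. Most calls of low genes depend on the pseudocount. Shares of all genes called were computed for the main setting only. The counts below therefore show how calls of members move, and not whether members differ from other genes. With 5 FPKM added, 2 members were 2-fold lower in VEMD6 and 1 was higher in VEMD3; with 0.1 FPKM, 5 were lower in VEMD8. Rescaling left 1 higher in VEMD3 and 4 lower in VEMD6. Without the filter, 1 member, Pax4, was lower in VEMD2 and 1 in VEMD3, and all 9 had VEMD6 and VEMD8 below the other 4 libraries; with a mean of 5 FPKM only 2 members were left, and 2 were lower in VEMD6 and 2 had both libraries lowest. At 1.5-fold, 1 was higher in VEMD2, 2 lower in VEMD4 and 5 lower in VEMD8; at 3-fold, 2 were lower in VEMD6 and 0 higher in VEMD3. Against VEMD2 in place of WT, 0 were higher in VEMD3 and 2 lower in VEMD4. Leaving out a library cannot, by construction, change how many members had VEMD6 and VEMD8 lowest, so it says nothing of stability.

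The median log2 ratio of the members, in the order VEMD2, VEMD3, VEMD4, VEMD6 and VEMD8, was 0.41, 0.47, -0.78, -1.98 and -2.32 with 0.1 FPKM, 0.19, 0.16, -0.28, -0.48 and -0.40 with 5 FPKM, 0.32, 0.25, -0.49, -1.24 and -1.17 after rescaling, 0.11, 0.14, -0.51, -1.20 and -0.93 without the filter, and 0.55, 1.13, -0.66, -1.78 and -2.89 for the granins alone under the stricter filter. The medians kept their sign under these 5 settings. With a limit of 40% of WT, 1 member was lost from VEMD4 on; with 60%, 1 was lost from VEMD3 on, 5 from VEMD4 on and 2 from VEMD6 on. Members 2-fold lower in VEMD8 than in VEMD6 numbered 0 with 5 FPKM, 2 after rescaling, 2 at 1.5-fold and 0 at 3-fold. Neurod1 in VEMD4, at the WT level, had a log2 ratio of -0.0145 after rescaling. Pseudocounts and filters act by their construction on low genes; the cause of the other differences was not tested. Values of about 1 to 3 fragments limit Pax4, Pax6 and Isl1 in VEMD6 and VEMD8.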

Other observations

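Tuft cells, another rare type of the epithelium, were read beside the enteroendocrine genes. Pou2f3, the factor that makes tuft cells, measured 0.77, 0.77, 0.4, 0.12, 0.02 and 0.05 FPKM in the library order of the report. Dclk1, a kinase that marks them, measured 0.57, 1.15, 0.36, 0.13, 0.06 and 0. Both averaged under 1 FPKM and were not tested. The 2 tuft markers that were tested took other courses. Trpm5, the cation channel of tuft cells, measured 1.21, 1.78, 1.37, 3.1, 3.99 and 2.33, and Avil, an actin-binding protein, measured 1.21, 2.57, 1.67, 2.69, 0.6 and 3.13. The tuft genes that were not tested were thus all below WT in VEMD6 and VEMD8. Trpm5 was above WT in both, and Avil in VEMD8 only.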
